A study of Mus musculus with 6 samples.

Results

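Complement genes and the receptors for complement fragments and for IgG were examined in the brown adipose tissue (BAT) of mice lacking soluble ST2 (sST2). The 10 genes were chosen by function from the 35976 listed in the count table: the C1q chains C1qa, C1qb and C1qc, the component C3, factor B (Cfb), the fragment receptors C3ar1 and C5ar1, and the Fc gamma receptors Fcgr1, Fcgr2b and Fcgr4. RNA-seq was performed on 3 sST2-KO mice and 3 WT littermates, all male, 10 weeks old and on a C57BL/6J background. In the sST2-KO mice, CRISPR/Cas9 editing had fused exons 8 and 9 of Il1rl1 in every cell by deleting the intron between them, which takes away the stop codon of sST2 and keeps the membrane form ST2L. All 6 mice, WT included, had undergone surgical BAT denervation and 8 h at 10 °C, so the comparison holds for denervated, cold-exposed BAT and has no innervated or warm group.

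Complement is a cascade of plasma proteins. C1q recognizes antibody and dying cells and starts the classical pathway, C3 is the hub at which the pathways meet, and factor B forms the C3 convertase of the alternative pathway. Fragments of C3 and C5 recruit myeloid cells through C3ar1 and C5ar1, and Fc gamma receptors let macrophages and other leukocytes sense IgG. Fcgr1 and Fcgr4 are activating and signal through an ITAM on the shared gamma chain, whereas Fcgr2b carries its own ITIM and is inhibitory. In fat, C1q comes mainly from macrophages, and C3, factor B and factor D (adipsin) are also made by adipocytes and stromal cells.

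Library totals lay between 8159442 and 12874809 counts, and 14542 genes were tested by edgeR's quasi-likelihood test. Values below follow the order of replicates 1, 2 and 3. For the edited gene Il1rl1, 19, 19 and 6 reads were counted in WT and 55, 69 and 142 in sST2-KO mice. Its log2 fold change, sST2-KO minus WT, was 2.56 (standard error 0.57, edgeR adjusted p = 0.0239), and gene counts do not separate its 2 forms. The brown fat marker Ucp1 was present in every library, with at least 1551 counts, but 6 of 8 brown adipocyte markers were called lower in sST2-KO mice, their sum being 8204 to 15291 CPM in WT and 315 to 1892 CPM in sST2-KO libraries. Libraries also held RNA of other tissues in unequal amounts. Liver markers summed to 4942 CPM in WT replicate 2 and to between 11.2 and 49.3 CPM in the others, and skeletal muscle markers ran from 8.14 to 1355 CPM in WT and from 3837 to 16491 CPM in sST2-KO libraries. No label gives a batch, and with 3 mice against 3 an exact permutation test of 1 value cannot give a p below 0.1.

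The genes lie in small clusters, which bears on how reads can be told apart. On GRCm39, the C1q genes sit side by side on the minus strand of chromosome 4, C1qb from 136606009 to 136613511, C1qc from 136616466 to 136620376 and C1qa from 136623223 to 136626161, with gaps of 2954 and 2846 bp. Fcgr2b (170786186 to 170804177, minus strand) and Fcgr4 (170846466 to 170857330, plus strand) are neighbors on chromosome 1, with Fcgr3 21407 bp beyond Fcgr4, and Fcgr1 is on chromosome 3 (96190225 to 96201338, minus strand). C3 is on chromosome 17 (57510964 to 57535155, minus strand), and Cfb is on the same chromosome (35074852 to 35081559, minus strand), 18 bp from C2. C3ar1 is on chromosome 6 (122823393 to 122833122, minus strand) and C5ar1 on chromosome 7 (15980668 to 15993465, minus strand). Of all windows of 150 bases in the canonical Cfb transcript, 61.1% also occur in transcripts of the read-through gene Gm20547, which the count table does not list. Fcgr2b shares 2.43% of its windows with transcripts of Aldh1a2 and Gm64270, and the other 8 genes share 0 windows with any other gene, as does Fcgr3. Cfb also overlaps Nelfe on the opposite strand, which had 210 to 360 counts per library and a log2 fold change of -0.25 (edgeR adjusted p = 0.467).

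RefSeq's promoter table (GRCm38.p6) matched 8 of the 10 genes, with C1qa and Cfb missing. The 250 bases before the start are shown for Fcgr1 and Fcgr4, a receptor that was called higher in sST2-KO BAT and one that narrowly missed the threshold, and for C1qb and C3, which were not called. Capitals mark matches, on either strand, to a PU.1 core (GAGGAA), an interferon element (GAAANNGAA), a GAS element (TTCNNNGAA) or a C/EBP motif (TTNNGNAAT).
Fcgr1, chr3:96293970-96294219, minus strand: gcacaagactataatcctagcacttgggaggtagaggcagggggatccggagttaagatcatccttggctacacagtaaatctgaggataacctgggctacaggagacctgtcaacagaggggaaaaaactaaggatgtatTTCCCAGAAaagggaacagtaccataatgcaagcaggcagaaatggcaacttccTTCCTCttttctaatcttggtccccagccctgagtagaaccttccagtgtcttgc
Fcgr4, chr1:171018676-171018925, plus strand: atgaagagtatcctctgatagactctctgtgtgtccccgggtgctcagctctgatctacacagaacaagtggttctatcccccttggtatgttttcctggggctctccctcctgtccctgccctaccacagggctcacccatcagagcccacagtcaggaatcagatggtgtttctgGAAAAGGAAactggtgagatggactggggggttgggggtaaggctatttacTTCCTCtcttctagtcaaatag
C1qb, chr4:136886201-136886450, minus strand: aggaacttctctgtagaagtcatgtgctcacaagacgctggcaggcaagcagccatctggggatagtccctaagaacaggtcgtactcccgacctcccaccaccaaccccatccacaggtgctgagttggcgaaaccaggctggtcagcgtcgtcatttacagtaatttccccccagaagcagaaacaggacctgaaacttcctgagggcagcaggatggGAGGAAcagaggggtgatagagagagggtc
C3, chr17:57228137-57228386, minus strand: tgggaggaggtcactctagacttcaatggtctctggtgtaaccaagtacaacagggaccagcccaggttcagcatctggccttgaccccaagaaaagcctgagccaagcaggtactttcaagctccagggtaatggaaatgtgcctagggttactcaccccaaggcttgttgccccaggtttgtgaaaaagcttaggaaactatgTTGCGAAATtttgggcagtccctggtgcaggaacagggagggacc

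A PU.1 core was found in Fcgr1, Fcgr4, C1qb and C1qc, which is 4 of 8 promoters, against 23.3% of all 32851 in the table. The interferon element was in Fcgr4 and C5ar1 (7.13% of all), the GAS element in Fcgr1 (7.02%) and the C/EBP motif in C3 (10.2%). In Fcgr1 the GAS match lies 109 to 101 bases before the start and the PU.1 core 55 to 50 bases before it. In Fcgr4 the interferon element lies 73 to 65 bases before the start, and the PU.1 core 22 to 17 bases before it. PU.1 is a transcription factor of myeloid cells and GAS elements mediate responses to interferon gamma, but a match of these letters is a description and no evidence of binding.

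The fragment receptor C3ar1, factor B and the high-affinity IgG receptor Fcgr1 rose in sST2-KO BAT, by 4.69-fold, 3.20-fold and 3.82-fold. Fcgr4, Fcgr2b and C5ar1 had all 3 sST2-KO libraries above all 3 WT libraries but missed the adjusted threshold. The 3 C1q genes were far above WT in 1 sST2-KO library only, and C3, the most abundant of the 10, averaged 1680 ± 455 CPM (SD, n = 3) in WT BAT and 1706 ± 664 CPM (SD, n = 3) without sST2. All 10 genes passed edgeR's expression filter, with at least 75 counts in every library. Of the 10, 3 were called higher (adjusted p under 0.05 and more than 2-fold), against 9.04% of all genes tested, and 0 were called lower, against 7.10%. Without overlap between the groups, 6 of 10 were higher in sST2-KO mice, against 21.8% of all genes, and 0 were lower, against 19.7%. The median log2 fold change of the 10 was 1.39, beside 0.03 for all genes tested. The count of 3 fell to 0 without WT replicate 1, 2 or 3 or sST2-KO replicate 3, and was 5 when libraries were scaled by total counts and 6 with DESeq2. In bulk tissue, more cells of a type and more RNA per cell cannot be told apart.

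**Figure D1:**
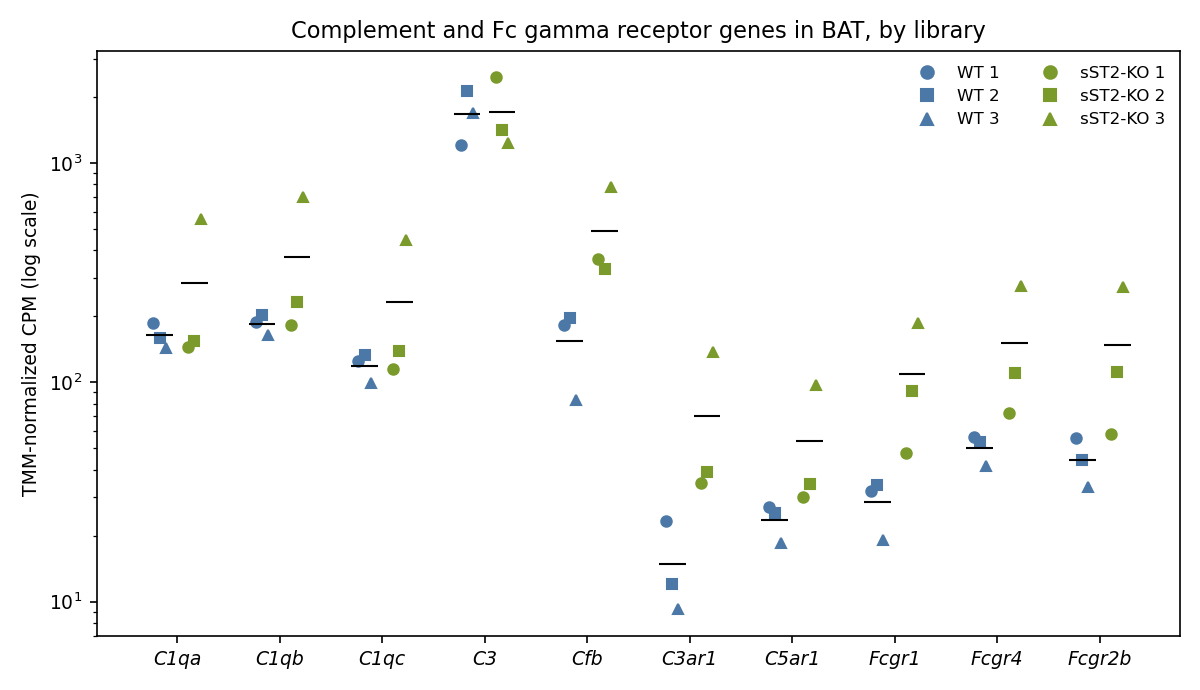
TMM-normalized CPM (log axis) of the 10 genes in each of the 6 libraries, with WT in blue, sST2-KO in green, 1 symbol per replicate number and a black line at each group mean. sST2-KO replicate 3 was the highest library for 9 of the 10 genes, and C3 was the exception.

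C1q is a hexamer of trimers, each made of 1 A, 1 B and 1 C chain. C1qa had 187, 160 and 144 CPM in WT and 145, 155 and 555 CPM in sST2-KO mice. C1qb had 189, 203 and 164 CPM in WT and 182, 233 and 700 CPM in sST2-KO mice. C1qc had 125, 134 and 99.4 CPM in WT and 115, 139 and 445 CPM in sST2-KO mice. In all 3 genes, sST2-KO replicate 1 lay within the WT range, replicate 2 within it or slightly above, and replicate 3 far above, so the groups overlapped. The log2 fold changes were 0.80 (standard error 0.52), 1.00 (0.49) and 0.97 (0.50), with edgeR adjusted p values of 0.302, 0.185 and 0.207. Leaving out that replicate gave -0.13, 0.16 and 0.09.

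The 3 chains kept close proportions across libraries that differed severalfold in level. Per kb of canonical transcript, the ratio of C1qb to C1qc lay between 1.11 and 1.23 in the 6 libraries, at 1.14 ± 0.0571 (SD, n = 3) in WT and 1.18 ± 0.0432 (SD, n = 3) in sST2-KO mice. The ratio of C1qa to C1qc was 2.55, 2.04 and 2.47 in WT and 2.14, 1.90 and 2.12 in sST2-KO mice, so the ranges overlapped. The 5 genes outside the fixed lists whose log2 CPM followed the mean of the C1q genes most closely over the 6 libraries were Plekhm3, P2ry6, Atg5, Rufy3 and Stab1 (Pearson r from 0.983 to 0.994). Their own log2 fold changes ran from 0.21 to 0.90, none called, and 6 libraries that share 1 high member set such values.

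C3, which all 3 complement pathways cleave, was the most abundant of the 10 genes per length in WT BAT. It had 1217, 2126 and 1698 CPM in WT and 2465, 1417 and 1235 CPM in sST2-KO mice. The groups overlapped, although sST2-KO replicate 1 lay above every WT library and WT replicate 1 below every sST2-KO library, and here sST2-KO replicate 3 was the lowest of its group and replicate 1 the highest. The log2 fold change was 0.02 (standard error 0.37, edgeR adjusted p = 0.974), which leaves room for a change in either direction. WT replicate 2, the library with liver RNA, had the highest WT value of C3, a gene that hepatocytes express strongly, and without it the log2 fold change was 0.22. The part of liver RNA in that value was not tested.

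Factor B, the alternative pathway partner of C3, did not follow it. Cfb had 182, 196 and 83.5 CPM in WT and 367, 329 and 783 CPM in sST2-KO mice, so the lowest sST2-KO library was 1.68 times the highest WT library. Its log2 fold change was 1.68 (standard error 0.45, edgeR adjusted p = 0.0400). When any WT library or sST2-KO replicate 3 was dropped, it lay between 1.17 and 1.89 but the adjusted p rose to between 0.0739 and 0.127. Per kb, the ratio of C3 to Cfb was 4.34, 7.02 and 13.2 in WT and 4.35, 2.79 and 1.02 in sST2-KO libraries, the ranges overlapping only at 4.34 and 4.35. The 5 genes closest to C3 over the 6 libraries were Arhgap35, Gm9385, Kctd13, Yaf2 and Rras (Pearson r from 0.969 to 0.987), with log2 fold changes from 0.02 to 0.10.

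Of the receptors for the fragments, C3ar1 had the largest rise among the 10 genes. It had 23.4, 12.1 and 9.25 CPM in WT and 34.8, 39.0 and 137 CPM in sST2-KO mice. Every sST2-KO library was above every WT library, by at least 1.49 times, and the log2 fold change was 2.23 (standard error 0.61, edgeR adjusted p = 0.0410). C3ar1 lost its call without WT replicate 1, 2 or 3 or sST2-KO replicate 3, with adjusted p values from 0.0510 to 0.148, and without the last its log2 fold change was 1.30. C5ar1, the receptor for C5a on neutrophils and macrophages, had 27.0, 25.5 and 18.5 CPM in WT and 30.0, 34.5 and 97.6 CPM in sST2-KO mice. Its groups were separated by a factor of only 1.11, and its log2 fold change of 1.19 (standard error 0.45) had an edgeR adjusted p of 0.104 and fell to 0.44 without sST2-KO replicate 3. Per kb, the ratio of C3ar1 to C5ar1 was 0.441, 0.240 and 0.254 in WT and 0.588, 0.574 and 0.711 in sST2-KO libraries, so each sST2-KO library had more C3ar1 for its C5ar1 than any WT library.

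**Figure D2:**
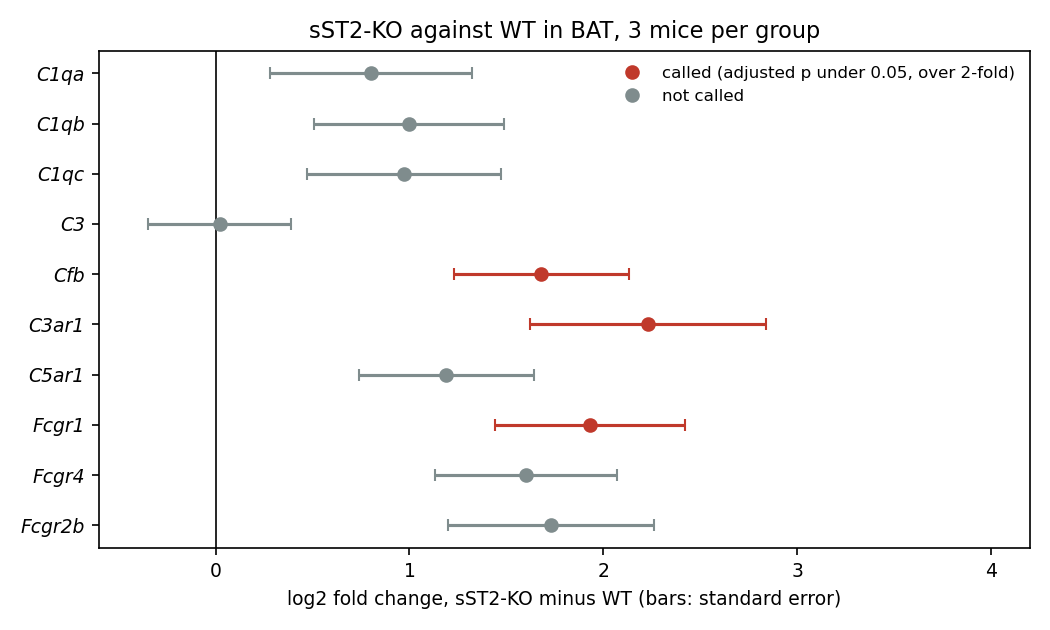
Log2 fold change of each gene (sST2-KO minus WT, n = 3 mice per group) with its standard error as a bar, red for genes called and gray for the others. C3ar1 (2.23), Fcgr1 (1.93) and Cfb (1.68) were called, Fcgr2b (1.73) and Fcgr4 (1.60) lay in the same range without a call, and C3 (0.02) lay at 0.

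The Fc gamma receptors, activating and inhibitory alike, had all sST2-KO libraries above all WT libraries. Fcgr1, the high-affinity receptor, had 32.0, 34.1 and 19.2 CPM in WT and 47.7, 91.5 and 187 CPM in sST2-KO mice. Its log2 fold change was 1.93 (standard error 0.49, edgeR adjusted p = 0.0340), and the adjusted p rose to between 0.0575 and 0.130 in 5 of the 6 fits that left out a library, the fit without sST2-KO replicate 1 being the exception. Without sST2-KO replicate 3 the Fcgr1 value was 1.28. Fcgr4, which binds IgG2 subclasses on monocytes, macrophages and neutrophils, had 56.1, 53.4 and 41.5 CPM in WT and 72.2, 111 and 274 CPM in sST2-KO mice. Fcgr2b, the inhibitory receptor of B cells and myeloid cells, had 56.0, 44.1 and 33.4 CPM in WT and 58.1, 112 and 273 CPM in sST2-KO mice. In these 3 genes sST2-KO replicate 1 was the lowest and replicate 3 the highest of its group, and for Fcgr2b the lowest of them exceeded the highest WT library by a factor of only 1.04.

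The log2 fold changes of Fcgr4 and Fcgr2b were 1.60 (standard error 0.47) and 1.73 (0.53), with edgeR adjusted p values of 0.0508 and 0.0578, just above the threshold. DESeq2 called both, at adjusted p values of 0.00520 and 0.00581, as did scaling by total counts (0.0365 and 0.0433), no filter (0.0306 and 0.0348) and the fit without sST2-KO replicate 1 (0.0292 and 0.0283). Dropping sST2-KO replicate 3 instead lowered their log2 fold changes to 0.86 and 0.93, with adjusted p values of 0.0800 and 0.126, and no other fit that left out a library called either gene. Fcgr3, the low-affinity activating receptor next to Fcgr4, had a log2 fold change of 1.21 (standard error 0.46, edgeR adjusted p = 0.102). Its lowest sST2-KO library was only 1.02 times the highest WT library, and its log2 fold change was 0.46 without sST2-KO replicate 3. Per kb, the summed level of Fcgr1, Fcgr3 and Fcgr4 was 6.19, 7.50 and 7.60 times that of Fcgr2b in WT and 7.10, 5.71 and 5.71 times in sST2-KO libraries. These ranges overlapped, so no shift between activating and inhibitory receptors was seen beyond the spread. Taken alone, Fcgr3 to Fcgr2b was 2.79, 3.29 and 3.55 in WT and 2.74, 2.03 and 2.15 in sST2-KO libraries, with all sST2-KO values below the WT values, by a margin of 2.79 against 2.74.

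Compared per kb of transcript, the order of mean levels in WT BAT was C3 (326 CPM per kb), C1qa (150), C1qb (73.3), C1qc (64.4), Cfb (46.0), Fcgr4 (39.4), Fcgr2b (13.1), Fcgr1 (10.8), C5ar1 (9.31) and C3ar1 (2.98). Neighbors in this order overlapped between C1qb and C1qc, C1qc and Cfb, Cfb and Fcgr4, Fcgr2b and Fcgr1, and Fcgr1 and C5ar1, and the other neighbors did not overlap. In sST2-KO BAT the order was C3 (331 CPM per kb), C1qa (262), C1qb and Cfb (both 147), C1qc (126), Fcgr4 (119), Fcgr2b (43.4), Fcgr1 (41.2), C5ar1 (21.3) and C3ar1 (14), and every pair of neighbors overlapped. The wider spread came with sST2-KO replicate 3: the highest sST2-KO library was 2.00 to 4.70 times the lowest, whereas in WT mice this factor was 1.23 to 2.53.

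Markers of leukocytes, which express most of these genes, also differed between the libraries. Of 14 macrophage markers, 2 were called higher (Lyz2 and Aif1) and 0 lower. Their median log2 fold change was 0.78, and their summed level was 773 to 1102 CPM in WT and 1464 to 6093 CPM in sST2-KO libraries. Much of that sum was Lyz2, at 352, 309 and 265 CPM in WT and 710, 585 and 3383 CPM in sST2-KO libraries. The mean log2 level of the 14 markers overlapped between the groups, at 5.43, 5.12 and 4.91 in WT and 5.31, 5.30 and 6.59 in sST2-KO libraries. The defining markers did not move alike: Adgre1 (F4/80) had a log2 fold change of 2.05 (edgeR adjusted p = 0.0586) and Csf1r of 1.06 (0.253), whereas those of the resident macrophage markers Cd163, Lyve1 and Timd4 were -1.26, -1.19 and -1.42, with adjusted p values of 0.127, 0.208 and 0.114. Csf1r lay within the WT range of 62.3 to 78.8 CPM in sST2-KO replicates 1 and 2, and without replicate 3 its log2 fold change was -0.15, that of Adgre1 0.99 and that of Lyz2 1.06. The calls of Lyz2 and Aif1 were lost without WT replicate 2 or 3, and that of Lyz2 also without WT replicate 1. Of 10 neutrophil markers, 3 were called higher, with sums of 32.6 to 159 CPM in WT and 157 to 755 CPM in sST2-KO libraries. All 8 markers of T and NK cells were higher in every sST2-KO library, 6 of them called. Markers of B cells, which carry Fcgr2b, had low counts, with Pax5 at 0 to 7, Cd79a at 5 to 20 and Cd79b at 2 to 36 per library. Only Cd79a and Cd79b of that list were tested, with log2 fold changes of 0.67 and 1.20, and neither was called. Calls in the other lists were 1 of 4 dendritic cell markers higher, 0 of 6 mast cell and 0 of 8 fibroblast markers, 1 of 6 endothelial markers higher and 1 lower, 2 of 4 liver markers lower, 1 of 12 muscle markers higher and 1 of 8 adipocyte markers lower. Over all genes tested, 9.04% were called higher and 7.10% lower. Few calls did not mean small differences. All 12 muscle markers were higher in every sST2-KO library (median log2 fold change 4.17). Mast cell markers had a median of 2.51, and Cma1 had 330 counts in sST2-KO replicate 3 against 52 and 18 in replicates 1 and 2. The part of these cells in the results was not tested.

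Set against the mean log2 level of the 14 macrophage markers in the same library, the 10 genes fell into 2 groups. For the C1q genes the mean difference in this relative level, sST2-KO minus WT, was -0.07 (C1qa), 0.16 (C1qb) and 0.12 (C1qc). C3 had -0.59, and the groups overlapped in all 4. The small mean for C1qa hid opposite deviations: its relative level was 2.12, 2.21 and 2.27 in WT and 1.88, 1.99 and 2.52 in sST2-KO libraries. Its sST2-KO replicates 1 and 2 thus lay below every WT library and replicate 3 above every WT library. C3ar1, Fcgr1, Cfb, Fcgr2b, Fcgr4 and C5ar1 were higher relative to the markers in every sST2-KO library, by 1.39, 1.15, 1.08, 0.88, 0.78 and 0.39 on the log2 scale. That is 6 of 10, against 6.88% of all genes tested. C5ar1 was separated narrowly, with a lowest sST2-KO value of -0.36 and a highest WT value of -0.39. These values were 0.57 and 0.40 for Fcgr2b. For Cfb, the relative level was 3.21, 3.07 and 3.02 in sST2-KO replicates 1 to 3 and 2.08, 2.50 and 1.49 in WT. On this scale sST2-KO replicate 3 did not stand out. That library also had the largest fibroblast marker total, 8352 CPM against 977 and 1884 CPM in sST2-KO replicates 1 and 2. Most of this total came from Col3a1 (5100 CPM) and Col1a1 (2440 CPM). Pdgfra was also highest there, but Dcn, Lum, Dpt, Pi16 and Dpp4 each peaked in a WT library. By replicate, the WT totals were 5421, 1729 and 2042 CPM, beside Cfb at 182, 196 and 83.5 CPM. Which cells the Cfb of sST2-KO replicate 3 came from was not tested. The marker mean combined genes with log2 fold changes from -1.42 to 2.37, so these relative levels depend on the markers taken. Those of Lyz2 (2.34) and Aif1 (2.37) were larger than those of all 6 genes, and that of Adgre1 (2.05) larger than those of all but C3ar1. The ratios are descriptions and were not tested against each other.

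**Figure D3:**
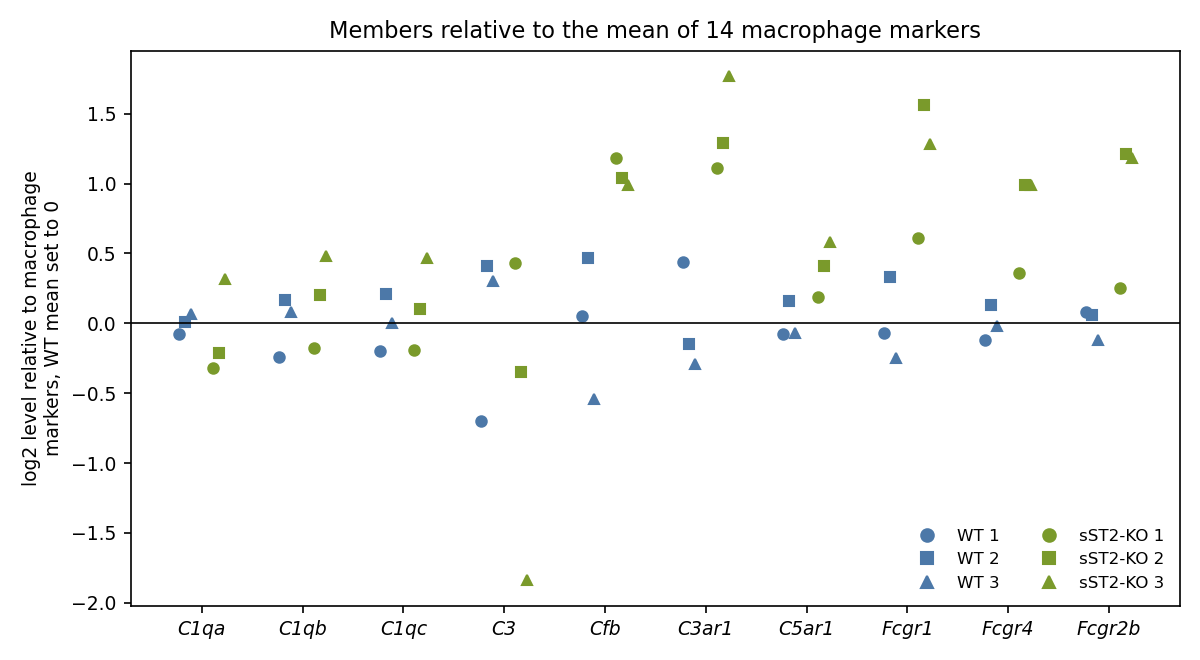
Log2(CPM + 1) of each gene minus the mean of the macrophage markers in the same library, with the WT mean of each gene set to 0 (WT in blue, sST2-KO in green, 1 symbol per replicate number). The C1q genes and C3 overlap between the groups, and the other 6 genes are higher in all 3 sST2-KO libraries.

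Beyond these genes, 88 others of the complement and Fc receptor systems were taken in 7 lists, and 60 of them were tested. Of the 60, 23 were called higher, against 9.04% of all genes tested, and 2 lower, against 7.10%. Their median log2 fold change was 0.52, and the calls were not spread evenly over the lists. ITAM and ITIM signaling genes held 15 of the 23 rises. The lists were written with the earlier results known, and the counts depended on single libraries: without WT replicate 1, 2 or 3 or sST2-KO replicate 3, 14, 9, 0 and 17 genes were called higher. In the fit without WT replicate 3, where edgeR called 0 of these genes in either direction, 33 of them had an unadjusted p under 0.05.

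In the classical and lectin pathways, 1 of 10 genes tested was called. C2, the protease that forms the classical C3 convertase and the neighbor of Cfb, had 60.3, 70.3 and 46.5 CPM in WT and 145, 136 and 128 CPM in sST2-KO mice. Unlike in Cfb, the sST2-KO libraries were close to each other, and the log2 fold change of 1.21 (standard error 0.20, edgeR adjusted p = 0.0150) lost its call only without WT replicate 3 (0.0653). The C1 proteases C1ra and C1s1 and the abundant component C4b had log2 fold changes of 0.58, 0.29 and 0.19, none called. C4b shares most of its sequence with C4a, so its value is uncertain.

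In the alternative pathway, properdin (Cfp), which stabilizes the C3 convertase and is made by leukocytes, had 31.3 to 47.4 CPM in WT and 70.0 to 252 CPM in sST2-KO mice (log2 fold change 1.79, standard error 0.52, edgeR adjusted p = 0.0482). It lost its call without WT replicate 1, 2 or 3 or sST2-KO replicate 3, and without the last its log2 fold change was 0.91. Cfd, the adipocyte protease adipsin that cleaves factor B, had 3476, 2834 and 3936 CPM in WT and 1814, 2861 and 1881 CPM in sST2-KO mice. Its log2 fold change was -0.64 (standard error 0.32, edgeR adjusted p = 0.193), opposite in sign to that of its substrate.

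Terminal and regulatory components gave few calls. C8g was the only 1 of 3 terminal genes called, at a log2 fold change of -2.10 (edgeR adjusted p = 0.0335), which was -1.30 without the liver-containing WT replicate 2 and then not called, as in 4 of the other fits that left out a library. Components that the liver makes were nearly confined to that library: Hc, which encodes C5, had 386 counts there and 0 to 7 elsewhere, C8a 276 against 0 to 4, C9 116 against 0 to 4, and the lectin Mbl2 169 against 0. None of these 4 passed the filter. Of 12 regulators tested, 0 were called. Serping1, the C1 inhibitor, had a log2 fold change of 0.74 (edgeR adjusted p = 0.0668), and Cd59a and Cd59b, which block the membrane attack complex, had -1.06 and -1.59 (0.0705 and 0.0639).

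Among 7 other complement receptors tested, 4 were called higher. Itgam and Itgb2, the chains of complement receptor CR3, rose by 2.67 (standard error 0.49) and 2.54 (0.42) on the log2 scale, and Itgax, the alpha chain of CR4, by 1.94 (0.37). Their edgeR adjusted p values were 0.0167, 0.0148 and 0.0173. Itgam had 55.9, 43.5 and 38.0 CPM in WT and 196, 150 and 529 CPM in sST2-KO mice, with no overlap. Cd93, a receptor of endothelial and myeloid cells, rose by 1.02 on the log2 scale (adjusted p = 0.0261), and C5ar2, the second C5a receptor, had 1.77, 1.13 and 0.740 CPM in WT and 0.976, 1.07 and 2.17 CPM in sST2-KO mice. All 4 calls were lost without WT replicate 3, that of Itgam, whose value was 1.91 without sST2-KO replicate 3, also without WT replicate 2, and that of Cd93 in every fit that left out a library except the fit without sST2-KO replicate 1.

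Of 6 other Fc receptor genes tested, 2 were called higher and 1 lower. Fcer1g, the common gamma chain that Fcgr1, Fcgr3 and Fcgr4 need for surface expression and signaling, had 53.9, 55.6 and 37.2 CPM in WT and 116, 135 and 348 CPM in sST2-KO mice. It rose by 2.03 on the log2 scale (standard error 0.44, edgeR adjusted p = 0.0231), a call lost when any 1 of the WT libraries was dropped, and by 1.35 without sST2-KO replicate 3. Fcrlb had 1, 1 and 2 counts in WT and 14, 9 and 37 counts in sST2-KO mice. Fcgrt, the neonatal Fc receptor that recycles IgG and albumin, went the other way, with 291, 300 and 398 CPM in WT and 86.1, 119 and 103 CPM in sST2-KO mice. Its log2 fold change was -1.68 (standard error 0.23, edgeR adjusted p = 0.0126) and ranged from -1.82 to -1.53 when single libraries were dropped, with a call in 5 of the 6 fits.

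Of 20 genes for ITAM and ITIM signaling, 15 were called higher, against 9.04% of all genes tested, and 0 lower, against 7.10%. In 18 of 20, every sST2-KO library was above every WT library, against 21.8% of all genes tested. The kinases Syk, Lyn and Fgr rose by 1.76, 1.65 and 3.29 on the log2 scale, and the adaptors Tyrobp and Lcp2 by 1.76 and 2.88. Without sST2-KO replicate 3 the values of Syk, Fgr, Tyrobp and Lcp2 were 0.89, 2.55, 1.08 and 2.24. The calls of Syk and Tyrobp were lost when any 1 of the WT libraries was dropped, that of Syk also without sST2-KO replicate 3, those of Lyn and Lcp2 without WT replicate 2 or 3, and that of Fgr without WT replicate 3. The phosphatases that Fcgr2b recruits rose too, Inpp5d (SHIP1) by 1.24 (standard error 0.28) and Ptpn6 (SHP-1) by 2.45 (0.39), with edgeR adjusted p values of 0.0257 and 0.0141. Both calls were lost without WT replicate 3, and that of Inpp5d also without WT replicate 2 or sST2-KO replicate 3. Ptpn6 had 19.7, 17.2 and 11.7 CPM in WT and 65.6, 59.2 and 141 CPM in sST2-KO mice. Most of these genes are used by lymphocytes and myeloid cells at large and not by Fc receptors alone. Src, Blnk and Cblb had log2 fold changes of 0.33, 0.31 and -0.25, and Vav3 and Cbl of 1.5 and 0.64 (adjusted p 0.0556 and 0.0590), none called.

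**Figure D4:**
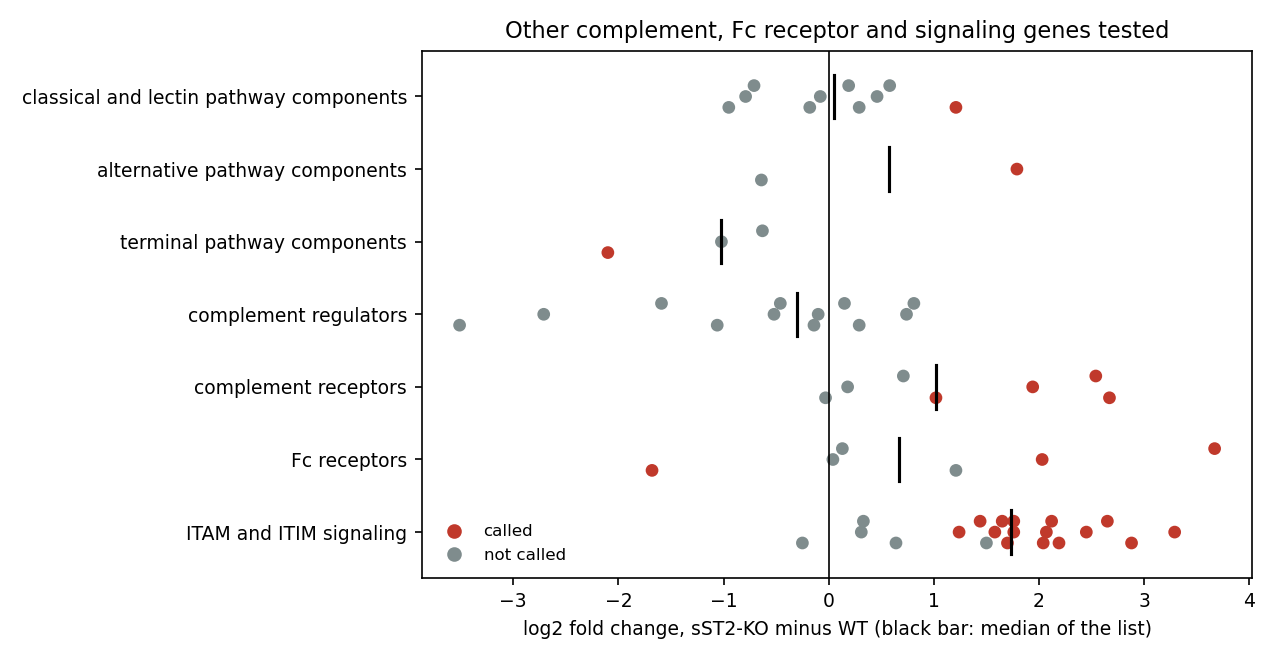
Log2 fold changes (sST2-KO minus WT) of the 60 tested genes in 7 lists, red if called and gray if not, with a black bar at each list's median. The signaling list has a median of 1.73 with 15 of 20 genes called higher, the regulators -0.30 with 0 of 12 called, and the terminal components -1.02 with 1 of 3 called lower.

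Genes of interferon, NF-kB and IL-6 responses, programs known to induce C3, Cfb, Fcgr1 and Fcgr4, were also read. Of 12, 7 were called higher, against 9.04% of all genes tested, and 0 lower, against 7.10%. The 7 were Socs3, Saa3, Lcn2, Il1b, Il6, Tnf and Nfkbiz, which belong to the inflammatory and IL-6 arms. All 7 calls were lost without WT replicate 3, those of Saa3, Il1b and Lcn2 also without WT replicate 1 or 2, and that of Lcn2, whose groups overlapped, also without sST2-KO replicate 1 or 3. The interferon genes Irf1, Irf7, Ifit3 and Isg15 had log2 fold changes of 0.73, 0.79, 1.11 and 1.21, none called. Saa3 had 53.3, 27.4 and 22.2 CPM in WT and 1044, 79.4 and 5159 CPM in sST2-KO mice, a far wider spread than that of Cfb in the same libraries. Its log2 fold change was 5.93, and 4.01 without sST2-KO replicate 3.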

How the data were processed

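RNA-seq counts of BAT from 3 WT and 3 sST2-KO mice were used. The authors aligned paired reads of 150 bases to mm39 with HISAT2 (2.2.1 in the submitters' processing notes) and counted them per gene with htseq-count, and the deposited counts are not normalized. The version of htseq-count and its strand setting are not given in the sources used here. Samples were grouped by their titles, and no column of sample values went unused (0 columns).

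The analysis of these counts used edgeR 4.0.16 in R 4.3.3. The filterByExpr filter retained 14542 of 35976 genes, and TMM factors scaled the libraries. The quasi-likelihood test (glmQLFit and glmQLFTest) was fitted across all genes without a covariate, with Benjamini-Hochberg adjustment. Calls required more than a 2-fold difference with an adjusted p below 0.05, the fold being the minimum in the study's methods, which name DESeq2. Standard errors were obtained as the absolute log2 fold change over the root of its F value. Levels are TMM-normalized CPM, and levels per kb divide these by the canonical transcript length in the GRCm39 annotation. Log2 levels relative to macrophage markers used a pseudocount of 1 CPM.

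The members, the gene lists and the tests were chosen with earlier results of these data known. The named genes are the 10 members, genes of 20 fixed lists, and the 5 genes in no list, averaging 2 or more in log2 CPM, that correlated best with the C1q mean and with C3. The counts of calls and the log2 fold changes were also computed with robust estimation, RLE factors, total counts as scaling and DESeq2 1.42.0. They were likewise computed without the filter, with a minimum of 10 counts per sample, with a block for the replicate number, and after dropping each library. Calls were also counted for any fold change. Ratios, relative levels, correlations and the order per kb were computed only on TMM-normalized CPM. The chi-square per degree of freedom between libraries of 1 group ran from 36.6 to 104, far above sampling noise. On simulated data with these group sizes and 200 of 14288 tested genes changed 4-fold, edgeR recovered 95.5% and called 6 unchanged genes. The simulation gave every gene the same dispersion and took the changed genes from above the median level. It held no deviant library and no RNA of other tissues. These rates check the code and do not measure power or error in the real libraries. Promoter sequences are RefSeq's on GRCm38.p6. Figures were drawn with matplotlib 3.10.9.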

Additional observations from a re-analysis of the deposited data

How the results depend on the processing

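Without the fold minimum, 3 of the 10 genes were called, as with RLE factors and robust estimation. At least 10 counts in every sample gave 4, no filter 5, total counts 5 and DESeq2 6. With a library left out, the count lay between 0 and 5. It was 0 without WT replicate 1, 2 or 3 or sST2-KO replicate 3, where 5 of the 10 genes had an unadjusted p under 0.05 from edgeR in each fit, and 5 without sST2-KO replicate 1. The cause was not tested. With total counts, 8 of 10 genes had no overlap between the groups, C1qb and C1qc besides the 6, and the median of all genes moved from 0.034 to 0.29.

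Over all genes, 1315 higher and 1033 lower genes became 1840 and 691 with total counts, which raised the share of higher genes, and after dropping 1 library ranged from 36 to 1383 and from 22 to 998. The other complement and Fc receptor genes called higher ranged from 0 to 25 and those lower from 0 to 3 in the same fits, and 10 were lower with no filter and 5 with DESeq2.

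A replicate block (a term for the replicate number) leaves 2 residual degrees of freedom, and under it 0 of the 10 genes, 0 of the other complement and Fc receptor genes and 0 of all genes were called in either direction, while 4, 33 and 4623 had an unadjusted p under 0.05. WT and sST2-KO libraries with a shared number had deviations correlated at -0.066, 0.22 and -0.32, so no pairing of mice by number was evident.

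C3, near 0, turned to -0.002 with RLE factors, -0.002 with DESeq2, -0.019 with the block, -0.17 without WT replicate 1 and -0.34 without sST2-KO replicate 1, and C1qa to -0.13 without sST2-KO replicate 3. Over single libraries dropped, C1qa ranged from -0.13 to 1.11 and C3 from -0.34 to 0.22. Depth limits genes such as Fcrlb and Pax5.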
